A study of Mus musculus with 12 samples.

Results

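The genes described here encode the proteins of the cytosolic ribosome. They were taken from the deposited expression table by symbol: Rpl or Rps followed by a number and at most 1 further letter, together with Rplp0, Rplp1, Rplp2, Rpsa, Rpl36al, Rpl7l1 and Rpl22l1. The rule found 84 genes among 24259 gene symbols, of which 52 belong to the large subunit and 32 to the small subunit, and 8 of the 84 are paralogs of another member. It left out 7 symbols marked as pseudogenes (-ps) and 14 other symbols, among them the S6 kinases, which share the Rps prefix but phosphorylate the ribosome.

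RNA was measured in germinal vesicle (GV) oocytes, the arrested stage before meiotic maturation, from the ovaries of 3-week-old mice taken 46 h after 5 IU of PMSG, a gonadotropin that drives follicle growth. Each lysate of 1500 oocytes was run through a sucrose gradient with cycloheximide to hold ribosomes on their mRNAs, and gradient fractions 1 to 10 were pooled as the RNP pool (mRNA outside polysomes) and fractions 11 to 28 as the polysome pool. The oocytes were wild type (WT) or homozygous for Lsm14b tm1a(KOMP)Mbp, a reporter-tagged insertion allele that leaves no detectable LSM14B protein (Lsm14b-KO, KO below), both on a C57BL/6J background; the allele is present in every cell of the mouse and not only in oocytes. LSM14B is an RNA-binding protein of oocyte RNP granules, and the 12 libraries, 3 for each of WT polysome, KO polysome, WT RNP and KO RNP, were amplified by Smart-seq2, which primes on poly(A) tails.

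A ribosome needs its proteins in nearly equal number, and their mRNAs are usually regulated together. Most of these mRNAs start with a C followed by a run of C and T, the 5′ terminal oligopyrimidine (TOP) tract, through which mTOR signaling and LARP1 set how much of the mRNA is on polysomes. A full-grown oocyte has stopped transcription, carries a large stock of ribosomes and keeps many mRNAs dormant until maturation.

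The start sites of RefSeq (GRCm38.p6) show the tract for some of these genes. Of the 63 genes with a RefSeq start sequence, 13 (20.6%) had a C followed by at least 4 bases of C or T exactly at the annotated start, read on the transcribed strand only, against 813 of 27025 genes overall (3.01%). Counted anywhere from 10 bases before to 10 bases after the start, the same letters were found in 39 of the 63 (61.9%) and in 34.4% of all genes. The sequences below are shown because the genes recur in the results, except Rpl15, shown for its long tract: each runs from 15 bases before the start to 15 bases from it, 5′ to 3′ on the transcribed strand, with the tract in capitals where it lies at the start. Rps6, chr4:86857353-86857382 on the minus strand, Rpl14, chr9:120571502-120571531 on the plus strand, and Rpl15, chr14:18270972-18271001 on the minus strand, carry it, while Rpl36al, chr12:69184053-69184082 on the minus strand, Rpl41, chr10:128549154-128549183 on the minus strand, and Rplp0, chr5:115559452-115559481 on the plus strand, have no tract at the annotated base.
Rps6: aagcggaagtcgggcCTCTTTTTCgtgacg
Rpl14: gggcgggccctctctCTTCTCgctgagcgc
Rpl15: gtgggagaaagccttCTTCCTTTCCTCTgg
Rpl36al: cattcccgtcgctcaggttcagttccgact
Rpl41: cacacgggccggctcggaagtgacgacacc
Rplp0: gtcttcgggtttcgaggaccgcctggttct
A match or its absence describes these letters only, since annotated starts can lie some bases from the start used in an oocyte.

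The libraries matched their labels. Lsm14b was at 11.3 to 15.3 FPKM (fragments per kilobase of transcript, scaled to the mapped fragments of the library) in the WT polysome libraries and 27.4 to 34.6 in the WT RNP libraries, and at most 0.893 in any KO library. All 10 oocyte markers were detected in every library. The granulosa and cumulus list was not at 0: its 10 genes summed to 143 to 223 FPKM in WT and 229.8 to 317 FPKM in KO polysome libraries, and to 197 to 222 FPKM in WT and 224 to 262 FPKM in KO libraries of the RNP pool, most of it Serpine2, with 4 to 7 genes detected in WT and 7 to 9 in KO libraries. Inha, the inhibin alpha subunit, was at 0 to 9.58 FPKM in WT and 39.4 to 51.4 in KO polysome libraries, and at 0 to 0.240 in WT and 3.80 to 11.0 in KO RNP libraries. Fshr, the FSH receptor, also lay higher in every KO library of each pool (4.12 to 5.62 FPKM in WT and 7.57 to 13.6 in KO RNP), as did Inhba in polysomes and Amh, at 0.405 FPKM or less, in RNP. In each pool 3 of the 10 genes were thus apart between genotypes, 6 overlapped and 1 was at 0 throughout. Foxl2 was listed at 0 in 11 libraries, and theca and stroma markers summed to at most 2.58 FPKM. KO polysome replicate 2 stands apart through 170809 FPKM of Mir300, and WT RNP replicate 1 had 12720 genes above 0 against 11270 and 11282 in the other WT RNP libraries and 12487 to 12595 in KO RNP libraries. In RNA from many oocytes, fewer cells of a kind and less RNA per cell cannot be told apart.

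Ribosomal protein genes held a small share of each library, and that share was highest in the KO RNP pool. The 84 genes together took 0.559%, 0.527% and 0.581% of the summed FPKM in the WT polysome libraries and 0.584%, 0.377% and 0.552% in the KO polysome libraries, the low value being the library with Mir300, which stood at 0.499% once Mir300 was left out. In the RNP pool they took 0.794%, 0.613% and 0.598% of the WT and 0.877%, 0.886% and 0.919% of the KO libraries. All 3 KO RNP libraries lay above all other libraries, and the mean was 0.668% ± 0.109 (SD, n = 3) in WT RNP and 0.894% ± 0.0222 in KO RNP. No test was run on the shares, since an exact permutation test of 3 against 3 libraries cannot go below 0.1. Rpl41 alone made up much of this: without it the shares were 0.429% ± 0.0604 in WT RNP and 0.497% ± 0.0176 in KO RNP, and the KO range of 0.482% to 0.516% overlapped the highest WT RNP library at 0.496%.

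**Figure D1:**
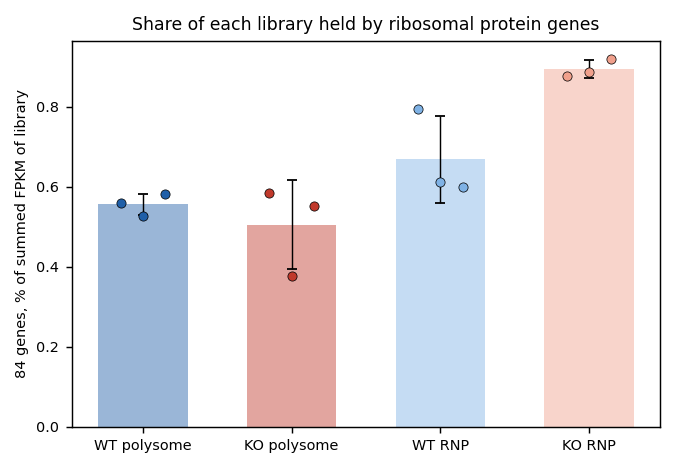
Summed FPKM of the 84 ribosomal protein genes as a percentage of the summed FPKM of all genes, by group; points are libraries in replicate order, bars are means and error bars are SD (n = 3). The 3 KO RNP libraries, at 0.877% to 0.919%, sit above every other library.

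The listed levels within the family were very uneven, although the proteins are needed in nearly equal number. FPKM is scaled to transcript length, but the order of genes with shared sequence may also depend on how their reads were divided, which was not tested. Rpl41, a peptide of the intersubunit bridge, had the highest mean over the 12 libraries at 1132 FPKM, with a range of 642 to 1880. The next were Rps4l at 368, Rpl36al at 344, Rpl39 at 185 and Rplp1 at 181 FPKM. Of the 84, 35 averaged at least 5 FPKM, 39 lay above 0 but below 5, and 10 were listed at 0 in all 12 libraries: Rpl11, Rpl12, Rpl28, Rpl36a, Rpl3l, Rpl9, Rplp2, Rps12, Rps21 and Rps28. Apart from Rpl3l, the muscle form of Rpl3, these encode standard subunits, though Rpl36a has the paralog Rpl36al. A listed 0 is not taken here as absence of the mRNA, which was not tested.

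The low listed values moved with how much of a gene's sequence is found elsewhere. Ribosomal protein genes have many processed pseudogenes, copies of their mRNA inserted back into the genome. In the GENCODE M21 transcripts (GRCm38), 574 other genes, 559 of them annotated pseudogenes, matched the coding sequence of a member with at least 95% identity over at least 80% of its length, and 77 of the 84 had such a copy. Rps4l, annotated without a coding sequence, could not be searched and is counted as having no copy. Rpl21 had the most, 57, and the median was 5. Across the 84 genes the share of 75-base stretches that also occur in transcripts of other loci ran against the mean FPKM (Spearman's rho -0.39, n = 84). The number of copies did so more weakly (-0.19), and the transcript length did not move with it (0.03). These are descriptions across genes, which share libraries and are not independent. The median share was 63.7% among the 19 genes with a mean above 0 and under 1 FPKM and 29.5% among the 10 genes at 50 FPKM or more; among the 10 genes listed at 0 throughout it was 46.9%. How much of each level the counting of shared reads changed was not tested.

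**Figure D2:**
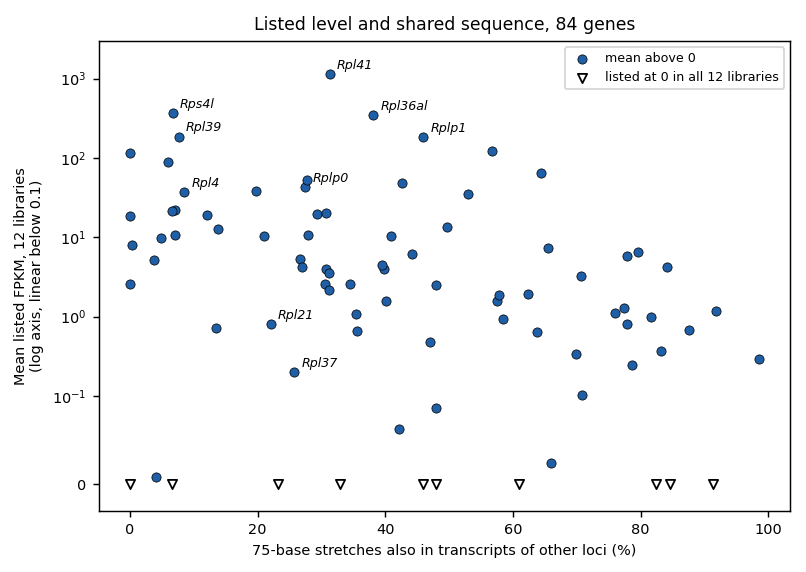
Mean FPKM over 12 libraries (log axis, linear below 0.1) against the percentage of 75-base stretches of the gene's representative transcript that also occur in transcripts of other loci, for 84 genes; triangles are the 10 genes listed at 0 throughout. Genes at 50 FPKM or more have a median share of 29.5%, and genes between 0 and 1 FPKM a median of 63.7%.

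Rpl37 was picked out after its values were seen, since its copy lies outside the naming rule. Of its 75-base stretches 25.8% occur at other loci, below the median of 39.7% over the 84 genes. Rpl37 was listed at no more than 0.92 FPKM in any library. Rpl37rt on chromosome 5, a copy whose coding sequence is identical at 290 of 291 bases, was listed at 591, 386 and 373 FPKM in WT polysome, 267, 316 and 254 in KO polysome, 651, 446 and 446 in WT RNP and 525, 435 and 445 in KO RNP libraries. The division of reads between them was not tested. The first 120 coding bases of the pair do not differ at all, and they are shown because reads from this stretch fit both genes.
Rpl37rt: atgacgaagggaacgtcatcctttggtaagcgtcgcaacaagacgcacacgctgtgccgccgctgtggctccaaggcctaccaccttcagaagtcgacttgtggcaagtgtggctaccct
Rpl37: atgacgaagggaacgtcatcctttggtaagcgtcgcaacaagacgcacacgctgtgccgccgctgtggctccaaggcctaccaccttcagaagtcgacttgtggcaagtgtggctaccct

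Of the 8 paralogs, Rps4l, Rpl36al, Rps27l and Rpl10l had a mean over the 12 libraries above that of the gene they resemble. Rps4l, annotated on chromosome 6 as a transcribed processed pseudogene, had a mean of 368 FPKM against 35.5 for the X-linked Rps4x, a core protein of the small subunit. Rpl36al on chromosome 12 had a mean of 344 FPKM against 0 for the X-linked Rpl36a, of whose 75-base stretches 84.6% occur at other loci. Rpl39l, known from male germ cells, had 114 FPKM against 185 for the X-linked Rpl39, which lines the exit tunnel for the new peptide.

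Rps27l stood at 19.2 FPKM against 0.289 for Rps27, with 98.5% of the 75-base stretches of Rps27 occurring elsewhere. Rpl10l, which takes the place of the X-linked Rpl10 in male meiosis, stood at 7.96 against 1.19 FPKM, and 91.9% of the stretches of Rpl10 were shared; it was above Rpl10 in 6 of 6 KO but only 2 of 6 WT libraries. By the same mean the paralog was the lower of the pair for Rpl39l, for Rpl22l1 against Rpl22 (13.5 and 21.8), for Rpl7l1 against Rpl7 (5.21 and 10.4) and for Rpl3l, listed at 0 against 0.374 for Rpl3. The order of Rpl22l1 and Rpl22 differed between pools: Rpl22l1 was the lower in all polysome libraries, but its mean was 9.19 against 7.73 FPKM in WT RNP and 12.9 against 7.76 in KO RNP, and it was the higher in 2 of 3 and 3 of 3 of these libraries.

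The paralogs differ from their parents to an unequal extent. Rpl39l and Rpl39 are identical at 130 of 152 aligned coding bases (85.5%), and Rps4l and Rps4x at 626 of 783 (79.9%). None of the 75-base stretches of Rpl39l and 6.67% of those of Rps4l occur at other loci, but 38.1% of those of Rpl36al do. The aligned coding bases of the first pair, and the first 120 of the second, are shown with the differing bases in capitals, 22 in the first pair and 26 in the second.
Rpl39l: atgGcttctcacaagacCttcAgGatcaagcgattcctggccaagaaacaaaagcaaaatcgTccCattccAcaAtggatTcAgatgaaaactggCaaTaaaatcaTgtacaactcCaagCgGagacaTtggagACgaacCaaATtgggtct
Rpl39: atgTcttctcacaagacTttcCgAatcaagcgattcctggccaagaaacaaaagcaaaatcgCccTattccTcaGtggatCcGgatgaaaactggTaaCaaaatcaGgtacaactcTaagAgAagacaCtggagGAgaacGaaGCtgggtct
Rps4l: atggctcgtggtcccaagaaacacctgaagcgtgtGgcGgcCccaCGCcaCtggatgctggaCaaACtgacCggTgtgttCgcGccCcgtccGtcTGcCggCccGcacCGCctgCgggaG
Rps4x: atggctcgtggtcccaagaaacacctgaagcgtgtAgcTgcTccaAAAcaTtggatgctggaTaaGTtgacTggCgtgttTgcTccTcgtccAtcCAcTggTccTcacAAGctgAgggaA

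The question for the RNP pool was which ribosomal protein mRNAs differed between KO and WT outside polysomes. There 14 genes were higher and 2 lower in the KO: the stalk genes Rplp0 and Rplp1, the large subunit genes Rpl10l, Rpl13, Rpl32, Rpl39, Rpl41 and Rpl29, and the small subunit genes Rps24, Rps25, Rps4l, Rps2, Rps4x and Rps20 rose, and Rpl36al and Rpl14 fell. Of the 84 genes, 54 passed the filter of 1 FPKM in at least 3 of the 6 libraries and 30 were not tested, and the 16 called genes compare with 20.7% of all 9931 genes tested (10.5% higher and 10.2% lower) in limma with Benjamini-Hochberg adjustment. The median log2 change of log2(FPKM + 1) among those 54 was 0.45 against 0.05 for all genes tested, and 41 of the 54 lay above 0. A gene that passes only through its higher group must differ. Rpl10l is such a gene, with 1 WT RNP library at 1 FPKM or more, so that its call is no evidence and 13 of the 14 remain. The 35 genes that averaged at least 5 FPKM over all 12 libraries were also counted, although Rpl10l, Rpl7l1 and Rps18, the last named after its values were seen, reach that level through KO groups alone. Of these 35, 30 lay above 0 (85.7%), Rpl10l and Rps18 among them, against 52.8% of the 6677 genes tested at that level. The median was 0.63 against 0.05. At that level 14 were called higher (40%) against 13.6%, but the 14 include Rpl10l, whose call is no evidence. The KO libraries lay entirely above the WT libraries for 25 of the 54 genes and entirely below for 4, where 20.7% and 18.4% of all genes did so. Rpl10l, Rpl10, Rpl23 and Rpl7a among the 25, and Rpl6 and Rpl23a among the 4, passed the filter only through their higher group. Their separation is no evidence, and the 41 above 0 hold such genes too. Rpl7a, Rpl6 and Rpl23a were named after their values were seen.

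Of the 5 most abundant members, Rpl41, Rps4l, Rpl39 and Rplp1 rose in the KO RNP pool and Rpl36al fell. Rpl41 was at 1309, 910.0 and 973 FPKM in WT and 1759.6, 1868 and 1879.6 FPKM in KO libraries of this pool, a log2 change of 0.80 (SE 0.12, limma adjusted p = 0.00207). Rpl39 was at 197, 121 and 128 FPKM in WT and 286, 266 and 314 in KO, a change of 0.98 (SE 0.17, limma adjusted p = 0.00451). No KO library overlapped a WT library for either gene, and WT RNP replicate 1 was the WT library nearest the KO in both.

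The ribosomal stalk, which recruits the elongation factors, is built from Rplp0 and the Rplp1 and Rplp2 dimers. Rplp0 was at 50.7, 48.4 and 43.2 FPKM in WT RNP and 89.4, 90.04 and 99.5 in KO RNP, a log2 change of 0.96 (SE 0.13, limma adjusted p = 0.00126). Rplp1 was at 165, 117 and 118 FPKM in WT RNP and 249, 289.7 and 259.8 in KO RNP, a change of 1.01 (SE 0.14, limma adjusted p = 0.00166). Both sets of libraries were fully apart. Rplp2 was listed at 0 throughout and adds nothing.

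Rpl32 and Rpl13 belong to the large subunit, and Rps24 and Rps25 to the small subunit, where Rps25 is known for initiation at viral internal entry sites. Rpl32 was at 96.4, 71.6 and 60.6 FPKM in WT RNP and 166, 148 and 175 in KO RNP (log2 change 1.11, SE 0.17, limma adjusted p = 0.00228). Rps24 was at 9.13, 7.29 and 5.92 in WT RNP and 21.5, 23.2 and 20.4 in KO RNP (1.44, SE 0.24, limma adjusted p = 0.00322). Neither gene overlapped between genotypes. The changes of Rpl13 (1.39, SE 0.33) and Rps25 (1.03, SE 0.25) had limma adjusted p-values of 0.0164 and 0.017; the call of Rpl13 was lost when any of the 3 KO RNP libraries was left out and that of Rps25 without KO RNP replicate 1 or 3.

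Rpl10l was listed above 0 in every KO library and at 0 in 4 of the 6 WT libraries. It was listed at 2.89, 0 and 0 FPKM in WT RNP and at 9.55, 18.2 and 7.72 in KO RNP, and at 0, 0 and 8.24 in WT polysome and 11.9, 23.2 and 13.9 in KO polysome libraries. All 6 KO libraries but 1 lay above the highest WT value of 8.24. Since the filter admitted it in both pools through its KO libraries, no fold or p is given for it.

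Rpl36al fell in both pools. It was at 697, 598 and 556 FPKM in WT RNP and 258, 284 and 253 in KO RNP, a log2 change of -1.21 (SE 0.10, limma adjusted p = 0.000102). In polysomes it was at 425, 319 and 284 FPKM in WT and 97.6, 181 and 170.5 in KO, a change of -1.22 (SE 0.25, limma adjusted p = 0.0192). The KO libraries were below all WT libraries in each pool, and the change was of nearly the same size in both: the difference between pools was -0.01 (95% CI -0.64 to 0.63). The polysome call was lost with no filter (adjusted p = 0.0683) or no intensity trend (0.0885), within a limma range of 0.00925 to 0.0885 over 15 alternatives.

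Rpl14, a large subunit protein, was the other gene to fall in the KO RNP pool, from 64.8, 50.1 and 57.0 FPKM to 25.8, 25.5 and 36.3 (log2 change -0.96, SE 0.19, limma adjusted p = 0.0076). In polysomes the values were 70.6, 50.2 and 66.8 in WT and 49.6, 39.9 and 46.0 in KO, a change of -0.45 (95% CI -0.91 to 0.01). The libraries did not overlap in either pool, but the polysome difference did not pass. Its copy Rpl14-ps1, outside the naming rule and chosen after its values were seen, was at 17.0, 14.8 and 15.1 FPKM in WT RNP and 7.70, 5.15 and 3.37 in KO RNP, while 42.6% of the 75-base stretches of Rpl14 occur at other loci. The division of reads between both was not tested.

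**Figure D3:**
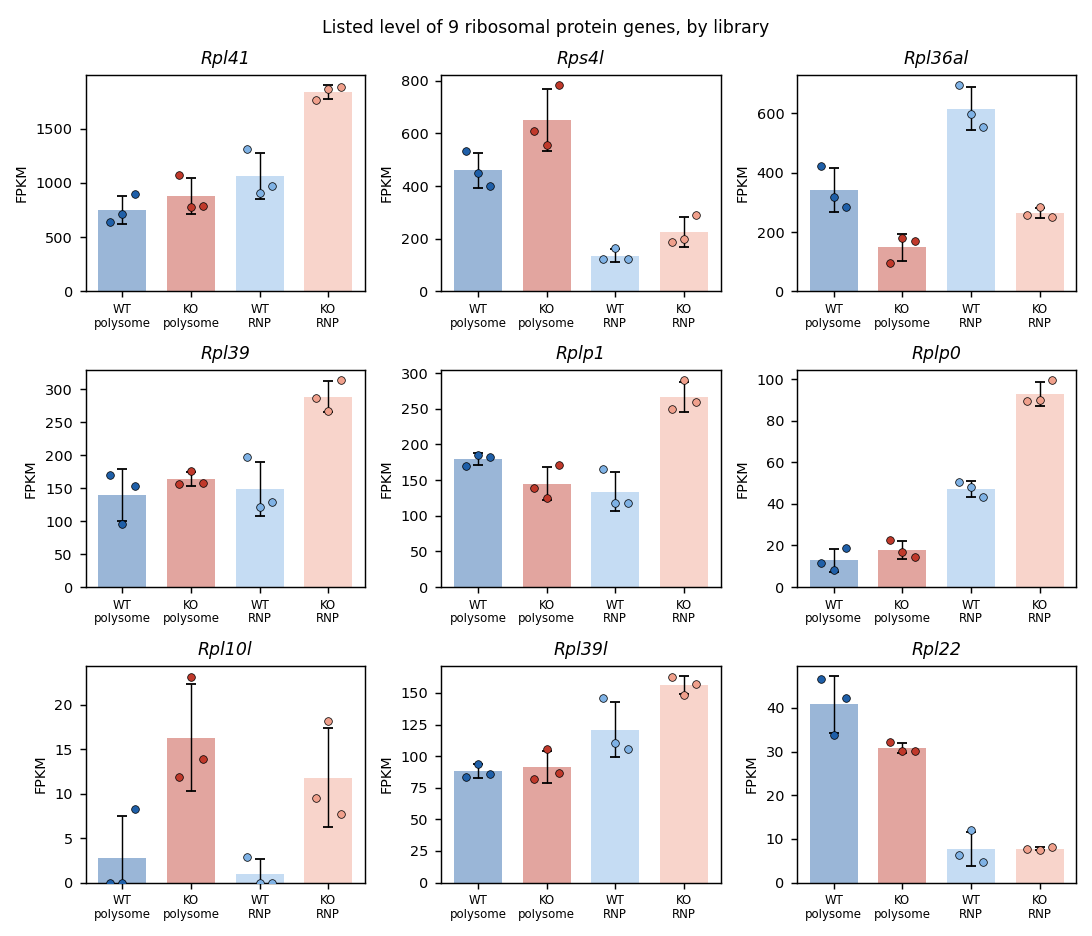
FPKM of 9 ribosomal protein genes in the 4 groups; points are libraries in replicate order, bars are means from 0 and error bars are SD (n = 3), and each panel has its own scale. Rpl41, Rpl39, Rplp1 and Rplp0 are highest in the KO RNP libraries, Rpl36al is lower in KO in both pools, Rps4l and Rpl22 are higher in polysomes in both genotypes, and Rpl10l is listed at 0 in 4 of 6 WT libraries.

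The count of genes called higher in the KO RNP pool depended on the libraries. It was 9 without KO RNP replicate 1 and 8 without KO RNP replicate 3, against 14 with all; without WT RNP replicate 1, the library with the most genes above 0, it was 16. Rps24, Rpl32, Rplp1, Rpl39, Rplp0 and Rpl41 stayed called higher, and Rpl36al and Rpl14 lower, in all 15 alternatives run for each, while Rps4l, Rps2 and Rps4x lost the call in 5, 6 and 8 of 15. Rps20 and Rpl29 lie outside the naming rule and were named after their values were seen. In the RNP pool the granulosa list summed higher in every KO than in every WT library, while 6 of its 10 genes overlapped between genotypes. The number of genes above 0 overlapped as well, at 12487 to 12595 in KO RNP and 11270, 11282 and 12720 in WT RNP libraries. The part of either in the result was not tested. FPKM is relative within a library, so the total amount of mRNA in a pool was not measured.

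In the polysome pool, where the question was whether the loaded level of these mRNAs differed between genotypes, Rpl36al was the only one called. Of the 84 genes 50 passed the filter, none was called higher and 1 lower, where 10.4% of all 9536 genes tested were called (5.64% higher and 4.73% lower). An unadjusted limma p under 0.05 was found for 7 of the 50 and for 2505 of all 9536 genes. The median log2 change was 0.19 among those 50 and 0.10 among all genes tested, and 36 of the 50 overlapped between genotypes, 7 lay entirely above and 7 entirely below, where 18.2% and 13.4% of all genes lay entirely above and below. Of the 7 above, Rpl10, Rpl10l and Rpl27, the last named after its values were seen, passed the filter only through KO libraries. Their separation is no evidence. For 12 of the 14 genes called higher in the KO RNP pool the polysome interval held 0, and for 7 of the 14 it did not reach the RNP change of the same gene. Those 7 were Rpl41, Rpl39, Rpl32, Rplp1, Rpl13, Rps2 and Rps24, with polysome changes among them of 0.22 (95% CI -0.15 to 0.60) for Rpl41, 0.26 (-0.23 to 0.75) for Rpl39, 0.02 (-0.45 to 0.50) for Rpl32 and -0.32 (-0.66 to 0.02) for Rplp1. This comparison is no test of a difference between pools, since the genes were chosen by their RNP change, which has its own error. In the test of the polysome-to-RNP ratio, given below, only Rplp1 of those 7 was called. For the other 7, Rplp0 (0.49, 95% CI -0.34 to 1.33), Rps4x (0.36, -0.21 to 0.92), Rps20 (0.45, -0.38 to 1.27), Rps25 (0.20, -0.74 to 1.14), Rpl29 (0.05, -0.60 to 0.70), Rps4l (0.49, 0.14 to 0.85) and Rpl10l, a polysome change as large as the RNP change lies within the interval. The interval of Rps4l lay above 0, although the gene was not called in polysomes.

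**Figure D4:**
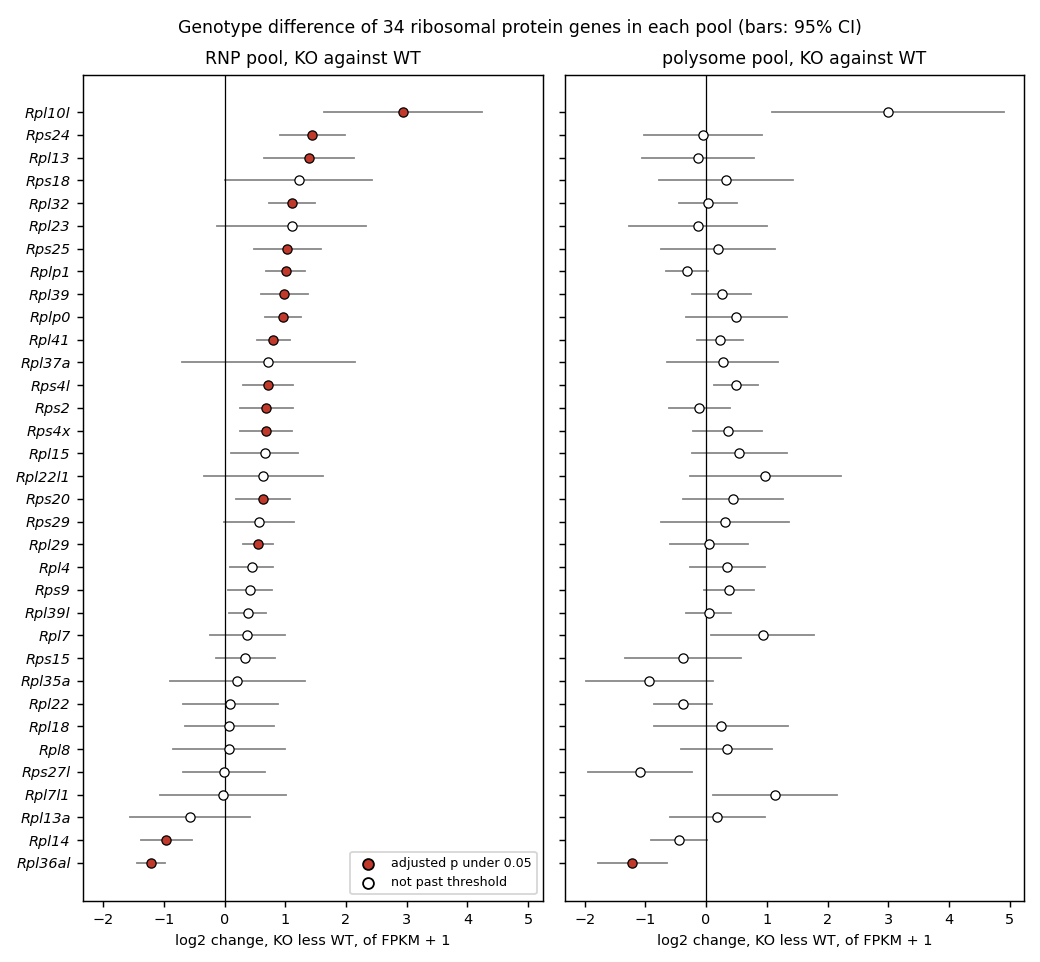
Log2 change of FPKM + 1, KO less WT, in the RNP pool (left) and the polysome pool (right) for 34 of the 35 ribosomal protein genes averaging at least 5 FPKM over 12 libraries, ordered by the RNP change; bars are 95% confidence intervals and filled points passed a limma adjusted p of 0.05. In the RNP pool 29 of the 34 points lie right of 0 and 16 are filled, and in the polysome pool the filled point is Rpl36al alone. Rpl10l, filled in the RNP pool, passed the filter only through its KO libraries.

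In WT oocytes the FPKM of the family differed little between the pools at the median, with a few genes far to either side. Since FPKM is relative within a library, this does not give how the molecules were divided. Rpl22, Rpl23, Rps4l, Rps2 and Rps6 were higher in polysomes and Rplp0, Rpl4 and Rpl36al were higher in RNP, 8 of the 51 genes that passed the filter, where 14.7% of all 9574 genes tested were called (7.97% higher and 6.72% lower). The median was 0.02 against -0.09 for all genes tested, with 26 genes above 0 and 25 below, and 11 genes lay entirely above and 9 entirely below, as did 16.7% and 17.9% of all genes. Rps6, Rpl23 and Rpl5 among the 11, and Rpl34 and Rpl23a among the 9, passed the filter only through their higher group. Of the calls, Rps6 and Rpl23 are therefore no evidence, so 3 higher and 3 lower remain. With all libraries rescaled to the same summed FPKM, 5 were higher and 7 lower. Mir300 is left out of that sum, but it was at 0 in every WT library. The number higher was 3 without WT polysome replicate 2 or 3 or WT RNP replicate 1, and the number lower was 5 without WT polysome replicate 3.

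Rpl22, a large subunit protein that cells can do without, was at 46.6, 33.7 and 42.2 FPKM in polysomes and 6.32, 12.1 and 4.74 in RNP (log2 change 2.34, SE 0.36, limma adjusted p = 0.00376). Rps4l was at 531, 451 and 399 FPKM in polysomes and 122, 164 and 121 in RNP (1.76, SE 0.16, limma adjusted p = 0.000307), while Rps4x was at 29.0, 24.5 and 33.5 and at 36.5, 23.6 and 26.5 (0.02, 95% CI -0.57 to 0.61). The interval of Rps4x does not reach the pool difference of Rps4l.

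Rps6, the S6 kinase substrate, was at 5.64, 4.98 and 9.75 FPKM in WT polysomes and listed at 0 in all 3 WT RNP libraries. It passed the filter through the polysome libraries alone, so its call is no evidence; 84.1% of its 75-base stretches are shared with other loci, and no fold is given against 0. Rpl23, the site where eIF6 binds the large subunit, spread from 9.25 to 32.7 FPKM in polysomes and from 0.186 to 4.46 in RNP. With 2 of the 3 RNP libraries at 1 FPKM or more it too needed the polysome libraries to pass the filter, so its WT call is no evidence. The call was also lost in 7 of 15 alternatives.

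The RNP side in WT was led by the stalk base. Rplp0 was at 11.6, 8.17 and 18.8 FPKM in WT polysomes against 50.7, 48.4 and 43.2 in RNP (log2 change -1.87, SE 0.32, limma adjusted p = 0.00575). Its partner Rplp1 was not on that side, at 169.9, 186 and 182 in polysomes against 165, 117 and 118 in RNP (0.44, 95% CI 0.07 to 0.81, adjusted p = 0.113). Rpl4, which reaches into the exit tunnel, was at 20.1, 24.8 and 17.5 FPKM in polysomes and 49.6, 36.6 and 39.7 in RNP (-0.98, SE 0.24, limma adjusted p = 0.0302), a call lost in 7 of 15 alternatives.

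In KO oocytes more of the family lay toward the RNP pool. Of the 55 genes that passed the filter, 15 were lower and 7 higher in polysomes than in RNP, where 29.2% of all 9851 genes tested were called (15.5% higher and 13.8% lower), and the median was -0.28 against -0.04 for all genes tested. Rpl34, named after its values were seen, and Rpl5 passed the filter only through their higher group. Their calls are no evidence, so 14 lower and 6 higher remain. Among the 35 genes averaging at least 5 FPKM, 14 were lower (40%, against 18.2% of all genes at that level) and 6 higher (17.1%, against 20.6%). The lean was not particular to this family. Of 74 mitochondrial ribosomal protein genes tested, 51 lay below 0 and 23 above, with a median of -0.34 and 19 called lower and 7 higher. The comparison shares the KO RNP libraries with the RNP comparison between genotypes and is no second line of evidence for it. Without KO RNP replicate 2 the number higher was 4, and the number lower ranged from 12 to 16 when each library was left out.

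Genes lower in KO polysomes included Rplp0 (log2 change -2.34, SE 0.18, limma adjusted p = 3.07e-05), Rps27l (-1.73, SE 0.25), Rps15 near the decoding site (-1.63, SE 0.37), Rpl32 (-1.43, SE 0.16) and Rpl41 (-1.08, SE 0.12). Rps27l, whose gene responds to p53, was at 28.1, 22.1 and 26.2 FPKM in KO RNP and 8.02, 8.38 and 4.99 in KO polysomes. All 15 lay entirely below their RNP libraries, Rpl34 with its call decided by the filter among them. Of the 55, 18 did so and 7 lay entirely above, against 21.7% and 22.5% of all genes. Rps16 among the 18, named after its values were seen, and Rpl5 among the 7 also passed the filter only through their higher group.

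Higher in KO polysomes were Rpl22 (1.86, SE 0.19, limma adjusted p = 0.000129), Rpl5, Rps4l (1.53, SE 0.18), Rpl23 (1.36, SE 0.35), Rpl7l1 (1.20, SE 0.30), Rpl7 (1.03, SE 0.30) and Rpl14 (0.62, SE 0.19). The calls of Rpl7 and Rpl14 were lost in 7 and 8 of 15 alternatives, those without KO polysome replicate 1, KO RNP replicate 1 or KO RNP replicate 2 among them for both. Rpl5, which with Rpl11 and 5S rRNA binds Mdm2, was low throughout and passed the filter through the polysome libraries alone, at 3.94, 5.16 and 5.36 FPKM in KO polysomes and 0.876, 1.29 and 0.775 in KO RNP libraries. Rpl22 and Rps4l were on the polysome side in WT too, and Rplp0, Rpl4 and Rpl36al on the RNP side in both genotypes. Rpl23 lay on the polysome side in WT as well, but that call was decided by the filter and is no evidence.

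**Figure D5:**
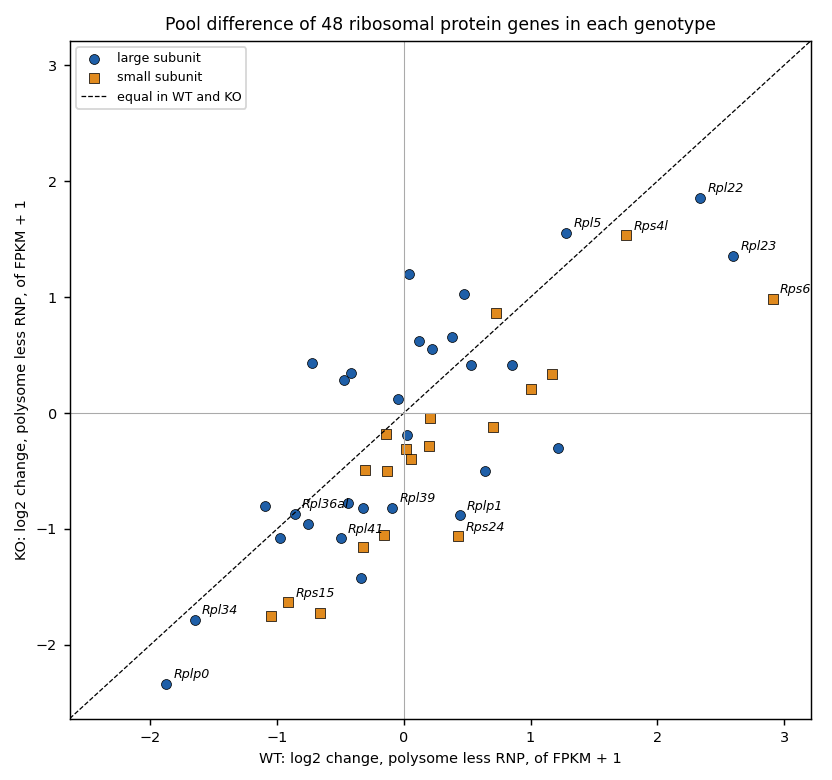
Log2 change of FPKM + 1, polysome less RNP, in KO (vertical) against WT (horizontal) for the 48 ribosomal protein genes tested in both genotypes; circles are large subunit and squares small subunit genes, and the dashed line marks equal values. Of the 48 points 36 lie below the line, Rplp1 among them, and most small subunit genes (squares) lie below it.

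Whether the division between pools itself differed between genotypes was tested as the change of the polysome-to-RNP ratio, KO against WT, in a fit over all 12 libraries. Rplp1 was the only gene of the family called, of 59 that passed the filter, where 0.237% of all 10949 genes tested were called (0.0822% higher and 0.155% lower). An unadjusted limma p under 0.05 was found for 9 of the 59 and for 1220 of all 10949 genes. The ratio of Rplp1 fell by 1.32 on the log2 scale (SE 0.21, 95% CI -1.79 to -0.86, limma adjusted p = 0.0226): polysome less RNP was 0.44 (SE 0.16) in WT and -0.88 (SE 0.13) in KO, where the polysome values were 139, 125 and 171 and the RNP values 249, 289.7 and 259.8 FPKM. This call is fragile, since it was lost in 10 of 21 alternatives, with adjusted p from 0.0136 to 0.170, while the change itself stayed between -1.49 and -1.22. It was lost without KO polysome replicate 1 or 2, without WT RNP replicate 2 or 3 and without any of the KO RNP libraries.

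Below the threshold the family leaned one way. Of the 59 genes 42 had a lower ratio in KO, with a median of -0.33 against 0.04 for all genes tested, and among the 35 genes averaging at least 5 FPKM it was 27, with a median of -0.45 against 0.01. Mitochondrial ribosomal protein genes leaned the same way, 50 of 75 below 0 and 25 above with a median of -0.20. The lean was more uniform among small subunit genes, 21 of 23 below 0 with a median of -0.71, than among large subunit genes, 21 of 36 with a median of -0.12; the difference between the subunits was not tested. Rpl13 (-1.52, SE 0.50) and Rps24 (-1.49, SE 0.48) had limma adjusted p-values of 0.247 and 0.245 and did not pass. No ratio is given for Rps6, since it would rest on the value of 0 in WT RNP. The median of the members stayed below that of all genes by 0.26 to 0.51 when each library was left out.

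Some genes of the ribosome carry other names or are fusions. Fau, a ubiquitin-like fusion to Rps30, changed by 0.43 (95% CI -0.34 to 1.19) in the RNP pool between genotypes, and Gnb2l1, the RACK1 scaffold of the small subunit head, by 0.67 (-0.13 to 1.46). Rps27a, a ubiquitin fusion, was at 5.91, 2.79 and 3.17 FPKM in WT RNP and 4.20, 1.99 and 3.90 in KO RNP, with overlapping libraries. Rpsa, the laminin receptor protein of the small subunit, stood at 4.17, 3.59 and 3.08 FPKM in WT RNP and 5.45, 5.42 and 4.51 in KO RNP (0.41, 95% CI -0.27 to 1.10), apart in every library yet not called.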

How the data were processed

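RNA of the RNP and polysome pools of WT and Lsm14b-KO GV oocytes was sequenced in 12 libraries, 3 per group. Per the labels, reads were processed with TopHat2 2.0.13, Cufflinks 2.2.1, Cuffnorm and Cuffdiff on mm10; how reads fitting several loci were divided is not given in the sources used here. The authors deposited FPKM per gene symbol for each library, and 54 further columns of their own comparisons (log2 fold changes, p-values and q-values), which were not used. Depth is not given: assuming fragments of 200 bases, the steps between low values gave rough estimates of 4600000 to 7800000 fragments per library, with 41.7% to 63.4% of low values within 0.1 of a whole fragment.

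Genes with at least 1 FPKM in at least 3 libraries of a comparison were tested on log2(FPKM + 1), so changes of low genes are understated, with limma 3.58.1 in R 4.3.3 (intensity trend, two-sided) and Benjamini-Hochberg adjustment at 0.05 over all genes tested; the steps were tested on simulated data. The fit over all 12 libraries gave the change of the polysome-to-RNP ratio. Nothing in the labels says that libraries came from separate animals, so p-values measure the spread between these libraries. The members and all gene lists were chosen with earlier results of these data known. Genes were named when called with a level averaging at least 5 FPKM (up to 10 in each direction), when among the 5 highest or 5 lowest members, or as paralogs, parents or ribosome-linked genes listed by name. Some genes are not reported here. Copies were found with blastn 2.17.0 in GENCODE M21 transcripts. Pseudocounts of 0.1 and 5, other filters and scalings, no trend, a replicate block and leaving out each library were tried.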

Additional observations from a re-analysis of the deposited data

Results flagged for a closer look

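The genotype effect on Rplp1 differed between the pools by the interaction test: it was -0.32 (log2, SE 0.15) in polysomes and 1.01 (SE 0.14) in RNP, a difference of -1.324 (limma adjusted p = 0.0226, Benjamini-Hochberg over 10949 genes). The KO RNP libraries were higher than all WT RNP libraries in 3 of 3, and the polysome libraries of the genotypes overlapped. Over 21 alternatives the adjusted p ran from 0.0136 to 0.170.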

How the results depend on the processing

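None of the results recomputed under the alternatives changed direction while called. In polysomes between genotypes, 1 gene (Rpl10l, which passes the filter through KO libraries) was called higher with a pseudocount of 5 or a filter at 5 FPKM, and 0 lower with no filter or no intensity trend. In WT, genes lower in polysomes numbered 5 with a filter at 5 FPKM and 7 with libraries rescaled to the same summed FPKM. For the ratio, 0 genes were called lower with no filter, no trend or the replicate block. Leaving out each library in turn gave these ranges for genes called: between genotypes, 0 to 1 higher and 1 to 1 lower in polysomes and 8 to 16 higher and 2 to 3 lower in RNP; between pools, 3 to 5 higher and 2 to 5 lower in WT and 4 to 6 higher and 12 to 16 lower in KO; for the ratio, 0 higher and 0 to 1 lower. Rescaling all libraries to the same summed FPKM, with Mir300 left out, moved the median of all genes tested by over 0.1 in polysomes between genotypes (0.10 to 0.00) and between pools in WT (-0.09 to -0.20) and KO (-0.04 to -0.19). The members' medians there became 0.09, -0.10 and -0.43. In WT, where Mir300 was at 0, the rescaling moved the split of called members from 5 higher and 3 lower to 5 and 7. The 5 higher before rescaling include Rps6 and Rpl23, whose calls are no evidence.

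Libraries with the same replicate number did not deviate together (correlations -0.02 to 0.03), so the numbers pair nothing. With the replicate number as a block, 11 members were higher and 2 lower in the RNP pool and the ratio call of Rplp1 was lost, at an adjusted p of 0.064. Sequence shared with pseudogenes and an unknown depth limit the values of low genes.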

Other observations

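Other mRNAs with a known TOP tract, 24 of them in the table, were read beside the ribosomal protein genes. In the RNP pool 4 of the 22 tested (18.2%) were called, all higher in KO, where 20.7% of all genes were called and 10.5% higher, and 18 of 22 had changes above 0, with a median of 0.50 against 0.05 for all genes tested. Among them were Pabpc1, the poly(A)-binding protein (1.66), the initiation factor subunit Eif3l (0.79) and the elongation factor Eef1a1 (0.59), all log2 changes with limma adjusted p-values of 0.0116, 0.0055 and 0.0033. In polysomes Eef1a1 (0.93) and Eif3l (1.01) were called higher as well, and the ratio was called for none of 22. For the ratio 2 of the 22 had an unadjusted limma p under 0.05, as did 1220 of all 10949 genes.

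Genes of ribosome assembly, 39 in the table, were called about as often as all genes. In the RNP pool 3 of 37 (8.11%) rose in KO, the rRNA methyltransferase Nop2 (2.00), the kinase Riok2 (1.61) and Nop10 (1.05), and 4 (10.8%) fell, against 10.5% and 10.2% of all genes, among them Utp3 (-1.49) and Gar1 (-1.16), with a median of 0.00. Their ratio between pools had a median of 0.55, with 28 of 37 above 0 and none called by limma. An unadjusted limma p under 0.05 was found for 7 of the 37 and for 1220 of all 10949 genes.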
